A study of Mus musculus with 19 samples.

Results

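The AP-1 and immediate early genes described here are Fos, Fosb, Jun, Junb, Jund, Atf3, Egr1, Ier2, Zfp36 and Myc. They were found by their symbols in a table of RNA read counts from mouse hepatocytes, which held all 10 among 24537 genes. The cells came from livers of male wild-type C57BL/6J mice perfused in 2 steps, and poly(A) RNA of each of the 19 mice gave 1 library. The young group held 10 mice labelled 5 months old (140 or 163 days from the labelled birth and cull dates) and the old group held 9 mice labelled 24 months old (719 or 742 days). No mouse carried an altered allele or received an agent, per the labels. Culling took place on 2 dates with 23 days between them, the earlier with 5 mice of each age and the later with 5 young and 4 old ones, so both ages were present on both. Mice are called by their library numbers.

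Immediate early genes are transcribed within minutes of a stimulus, from factors that are already in the cell and without the need for new protein. Kinase cascades act on factors bound near their start sites, and the transcripts that result are short-lived, many of them through AU-rich elements at their 3′ ends. Proteins of the FOS and JUN families pair to form AP-1, which binds DNA at the sequence TGANTCA. In liver these genes are known for their rapid rise after partial hepatectomy, in inflammation and during the enzymatic isolation of hepatocytes. No label used here gives the perfusion time of a mouse or the viability of its cells, so their part in the values was not tested.

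The deposited counts summed to between 17381439 and 20287628 per library. Levels below are in CPM, read counts divided by library size after TMM scaling, which sets each library against the bulk of its genes. Hepatocyte markers such as Alb and Apoa1 summed to between 87159 and 192498 CPM in every library, so the labelled cell type was present throughout. Markers of other liver cells were present too and differed with age. Stellate cell markers were higher in old mice for 12 of 12 tested genes, with summed levels of 47.2 to 127 CPM in young and 133 to 464 CPM in old mice. Macrophage markers were higher for 12 of 13 tested genes, with sums of 106 to 522 CPM in young and 68.4 to 3324 CPM in old mice. Endothelial markers were higher for 8 of 12, with sums of 178 to 331 CPM in young and 191 to 613 CPM in old mice. T and NK cell, B cell, neutrophil and cholangiocyte markers were mostly low, with 1, 2, 1 and 2 of them tested and 0, 2, 1 and 0 higher in old mice. Their sums reached at most 3.09, 2.64, 5.46 and 170 CPM in young and 31.8, 24.5, 15.8 and 63.5 CPM in old mice. None was without a read in all libraries, but the defining markers Klrb1c, Ncr1, Pax5, Ly6g, Cxcr2, Krt7 and Cftr stayed under 1 CPM in every library. In bulk RNA, fewer cells of a type and less RNA per cell cannot be told apart. Young mice 1184, 1186 and 1188, all of the first cull day, stood apart in acute phase transcripts such as Saa1 and Lcn2. The mean over 12 such genes was 8.95 to 10.2 on the log2 CPM scale in them and 5.49 to 6.07 in the other 7 young mice. Old mouse 1187 had the highest macrophage sum. Main values of the 10 genes are also given without these mice where they move.

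The sequences below show how the genes are built, since short genes with few introns, stimulus-responsive promoters and unstable transcripts are what the class is known for. By GENCODE M21 (GRCm38), the 10 genes spanned a median of 3427 bases, against 21341 bases over the 12029 tested genes that matched the annotation. All 10 had 4 exons or fewer, as did 21.4% of tested genes, and 8 of 10 spanned under 6000 bases, as did 16.1%. Jun, Junb, Jund and Ier2 had a single exon in the transcript examined. RefSeq promoter sequences (GRCm38.p6) matched 7 of the 10, and Egr1, Ier2 and Myc had no match. The 250 bases before the start were searched on both strands for 9 motifs. TGACG, the core of the cyclic AMP response element and a part of TGACGTCA, was found in 4 of 7 (Fos, Fosb, Junb and Atf3) and in 17.8% of 32851 promoters. The full element TGACGTCA was found in 0 of 7 and in 1.55% of all, and the AP-1 sequence TGANTCA in 0 of 7 and in 6.75%. The variant TGACATCA, known from the Jun promoter, stood at -45 in Jun and in 2.93% of all. A CArG box, the serum response factor motif, stood at -58 in Zfp36 and in 1.47% of all. The TATA box letters TATAAA stood at -33 in Fos and in 12.4% of all. GCGNGGGCG, the EGR motif, was found in Fosb and Zfp36 and in 4.7% of all, CCAAT in Jun and Junb and in 33.8%, and CACGTG, the E-box to which MYC binds, in 0 of 7 and in 6.02%. Matches are descriptions of letters, not of bound sites, and positions are those of the first base of the match counted back from the RefSeq start. The promoter window of Jund lies before the start of the transcript that the count table uses, and it held none of the 9 motifs.

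The 5 promoters shown are those of the pair of genes that varied most alike between mice (Fos and Junb), of Fosb and Jun as their relatives and of Zfp36 as the bearer of the CArG box. Each is the 150 bases before the start, 5′ to 3′ on the strand of the gene, with the TGACG core, the TATA box, the Jun variant or the CArG box in capitals. They lie at chr12:85473740-85473889 (plus strand, Fos), chr7:19310046-19310195 (minus strand, Fosb), chr4:95052223-95052372 (minus strand, Jun), chr8:84978749-84978898 (minus strand, Junb) and chr7:28379229-28379378 (minus strand, Zfp36).
Fos: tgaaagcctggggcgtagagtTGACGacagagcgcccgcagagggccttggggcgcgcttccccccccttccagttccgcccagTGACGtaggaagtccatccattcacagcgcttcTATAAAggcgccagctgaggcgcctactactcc
Fosb: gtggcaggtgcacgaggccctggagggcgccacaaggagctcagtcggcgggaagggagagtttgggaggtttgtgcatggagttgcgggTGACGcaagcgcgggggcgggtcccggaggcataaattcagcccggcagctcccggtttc
Jun: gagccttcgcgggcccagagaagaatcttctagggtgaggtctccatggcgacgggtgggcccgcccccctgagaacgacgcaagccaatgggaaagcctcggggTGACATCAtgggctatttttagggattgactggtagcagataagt
Junb: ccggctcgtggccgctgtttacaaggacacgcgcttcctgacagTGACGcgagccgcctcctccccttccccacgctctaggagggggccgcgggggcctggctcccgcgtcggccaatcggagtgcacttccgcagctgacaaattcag
Zfp36: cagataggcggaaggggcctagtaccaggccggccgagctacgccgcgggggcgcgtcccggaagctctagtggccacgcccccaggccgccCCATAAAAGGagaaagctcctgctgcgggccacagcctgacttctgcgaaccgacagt

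The heptamer TATTTAT, the core of AU-rich elements, was searched on the transcript strand of the 3′ untranslated region. Within its last 500 bases the heptamer was present in 5 of the 8 genes whose region is that long (Atf3, Fos, Jun, Jund and Zfp36) and in 14.8% of 8065 tested genes. Over the whole region it was present in 6 of 10 and in 27.6%. Fos held 2 copies and Zfp36, whose protein tristetraprolin binds such elements and speeds the decay of the transcript, held 3. The sites of Fos, Zfp36 and Jun are shown with 9 bases on either side and the heptamer in capitals. In Fos (plus strand) they lie at chr12:85477105-85477129 and chr12:85477129-85477153. In Zfp36 (minus strand) they lie at chr7:28376968-28376992, chr7:28376953-28376977 and chr7:28376928-28376952, and in Jun (minus strand) at chr4:95049081-95049105.
Fos site 1: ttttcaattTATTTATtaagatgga
Fos site 2: attctcagaTATTTATatttttatt
Zfp36 site 1: tgggcccttTATTTATgacgacttt
Zfp36 site 2: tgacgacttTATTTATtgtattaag
Zfp36 site 3: attttatagTATTTATatatattgg
Jun site: gcttgtgcaTATTTATaatagcgtt

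Comparison of old with young mice asked how hepatocyte transcripts differ with age. The log2 fold changes below come from edgeR's quasi-likelihood test with cull day as a covariate, with Benjamini-Hochberg adjustment over 12269 tested genes and a threshold of 0.05 on the adjusted p. All 10 genes passed the filter on low counts. Of them, 6 were higher in old mice (Fos, Jun, Jund, Egr1, Atf3 and Ier2) and 0 were lower, where 16.3% of all tested genes were called higher and 14.5% lower. Before adjustment 7 of 10 had a p under 0.05, as did 5193 of the 12269 tested genes. A positive log2 fold change was found in 9 of 10 and in 6083 of the 12269. DESeq2 called 7 of 10 higher (Zfp36 in addition) and 16.3% of tested genes, and limma-voom called 6 of 10 and 16.9%. The median log2 fold change of the 10 was 0.81, and that of all tested genes was -0.003. None of the 10 separated the ages fully, a pattern shown by 0.994% of tested genes. In Fos, Jund and Ier2 at least 7 of 9 old mice lay above every young mouse, as they did in 5.01% of tested genes, a limit chosen after the values were seen.

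**Figure D1:**
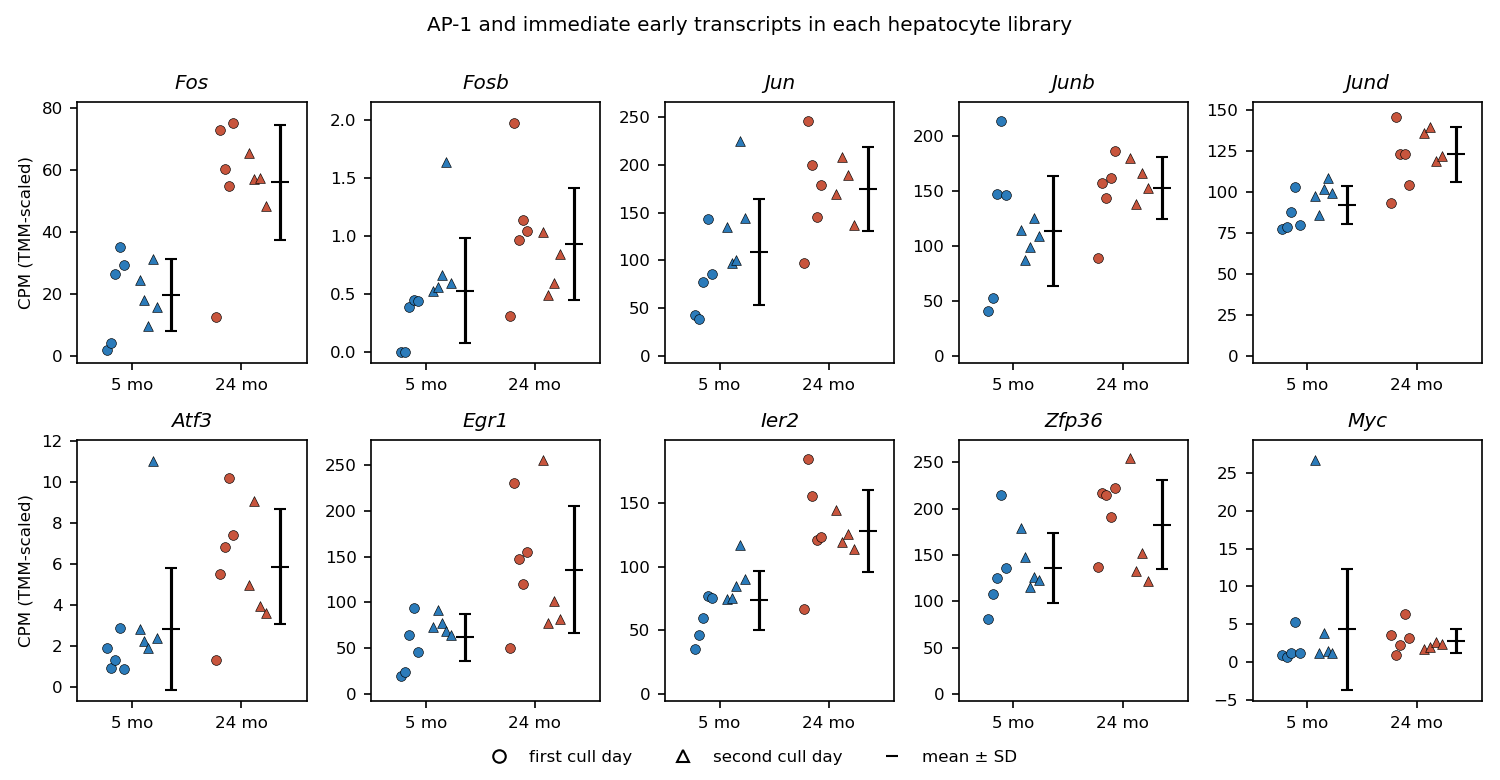
Level of each transcript in CPM (vertical axis, linear, its range set for each gene) in every young and old mouse, with circles for the first and triangles for the second cull day and bars for mean ± SD within an age. In Fos, Jund and Ier2 most old mice lie above all young mice, whereas in Myc 1 young mouse at 26.7 CPM sets the mean of its group.

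Fos, the inducible partner in AP-1, lies on chromosome 12 (chr12:85473901-85477270 in mm10). Its level in young mice ran from 1.79 to 35.0 CPM with a median of 21.2, and in old mice from 12.5 to 75.3 CPM with a median of 57.3. In 8 of 9 old mice Fos was above its level in every young mouse, and the exception was old mouse 1181. The log2 fold change was 1.52 (SE 0.41, 2.87-fold, adjusted p = 0.0101 by edgeR's quasi-likelihood test). The lowest levels were in young mice 1180 and 1182, at 1.79 and 4.04 CPM, and both were culled on the first day. Young mice 1184, 1186 and 1188 had 26.6, 35.0 and 29.2 CPM, and without these 3 mice the log2 fold change was 2.33 (SE 0.49, adjusted p = 0.00397 by edgeR). The part of their acute phase levels in the Fos values was not tested.

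Fosb, a FOS relative that responds to many of the same stimuli (chr7:19302696-19310045), was the least abundant of the 10. It ran from 0 to 1.64 CPM in young and from 0.307 to 1.97 CPM in old mice, with medians of 0.486 and 0.966. Young mice 1180 and 1182 again had the lowest values, and the groups overlapped widely. Its log2 fold change of 0.95 (SE 0.49) did not pass, with an adjusted p of 0.149 by edgeR. At most 37.5 reads stood behind a value, and the values of 0 CPM in mice 1180 and 1182 were deposited counts of 0.5 rounded to 0.

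The JUN family supplies the other partner of AP-1. Jun (chr4:95049036-95052222), the member that stress kinases activate, ran from 38.8 to 225 CPM in young mice with a median of 99.0, and from 97.8 to 246 CPM in old mice with a median of 179. The ranges overlapped. Young mouse 1243 reached 225 CPM, the next young mouse stood at 145 CPM, and 5 young mice besides 1243 lay above old mouse 1181. The log2 fold change was 0.78 (SE 0.25, 1.71-fold, adjusted p = 0.0249 by edgeR's quasi-likelihood test). Junb (chr8:84976909-84978748), a weaker activator that can restrain Jun, ran from 40.9 to 214 CPM in young and from 89.0 to 186 CPM in old mice, with medians of 111 and 157. The highest value of all 19 mice was in young mouse 1186, and no old mouse exceeded it. Its log2 fold change of 0.43 (SE 0.23, adjusted p = 0.165 by edgeR) did not pass over all mice. Without young mice 1184, 1186 and 1188 it was 0.97 (SE 0.19, adjusted p = 0.00299 by edgeR) and passed, and without mouse 1186 alone it was 0.59 (adjusted p = 0.0409).

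Jund (chr8:70697739-70700616), the JUN member that is expressed in resting cells, had the smallest spread of the 10 genes. Its level ran from 77.3 to 108 CPM in young mice with a median of 92.4, and from 93.3 to 145 CPM in old mice with a median of 123. In 7 of 9 old mice it was above every young mouse, and all 9 were above the young median. The log2 fold change of 0.43 (SE 0.08, 1.35-fold) had the smallest adjusted p of the 10, 0.0009345 by edgeR's quasi-likelihood test. Junb had almost the same log2 fold change, 0.43, with an SE of 0.23, so that the spread between mice set which of the 2 passed.

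Atf3 (chr1:191170297-191183333) encodes a stress-induced factor that pairs with JUN proteins and often represses. It ran from 0.878 to 11.0 CPM in young and from 1.28 to 10.2 CPM in old mice, with medians of 2.07 and 5.51. In young mouse 1243 it reached 11.0 CPM, above every old mouse, while the other 9 young mice had 0.878 to 2.84 CPM. The log2 fold change was 1.22 (SE 0.43, 2.34-fold, adjusted p = 0.0374 by edgeR's quasi-likelihood test). This call was the least stable of the 6. It held in 7 of 19 fits that left out 1 mouse, whose adjusted p ran from 0.00212 to 0.0717, and without mouse 1243 the log2 fold change was 1.64. Leaving out any 1 of young mice 1180, 1182, 1184, 1188, 1235, 1237, 1239 and 1244 or old mice 1185, 1187, 1189 and 1238 ended it.

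Egr1 (chr18:34861207-34864956) encodes a zinc finger factor induced by growth factors through the serum response factor. It ran from 19.02 to 94.0 CPM in young mice with a median of 66.2, and from 50.3 to 255 CPM in old mice with a median of 120. In 6 of 9 old mice it lay above every young mouse, and old mice 1183 and 1236 had the highest levels at 230 and 255 CPM. The log2 fold change was 1.17 (SE 0.32, 2.26-fold, adjusted p = 0.0103 by edgeR's quasi-likelihood test).

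Ier2 (chr8:84661331-84662852), an immediate early gene without introns whose protein acts in the nucleus, ran from 35.5 to 117 CPM in young and from 66.5 to 185 CPM in old mice. The medians were 75.1 and 123 CPM. It lay above every young mouse in 7 of 9 old mice, the exceptions being 1181 and 1242, the latter at 114 CPM. The log2 fold change was 0.85 (SE 0.18, 1.80-fold, adjusted p = 0.00256 by edgeR's quasi-likelihood test), and Ier2 passed in all 31 alternative fits.

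Zfp36 (chr7:28376784-28379228), the gene of tristetraprolin, ran from 81.2 to 214 CPM in young and from 122 to 255 CPM in old mice, with medians of 126 and 191. In 4 of 9 old mice it lay above every young mouse. Its log2 fold change of 0.42 (SE 0.17, adjusted p = 0.0660 by edgeR) did not pass. It passed in 5 of 19 fits without 1 mouse (1181, 1186, 1235, 1238 or 1242, with 0.0211 as the smallest adjusted p), without young mice 1184, 1186 and 1188 (0.56, adjusted p = 0.0424 by edgeR), with scaling by library totals (0.47, adjusted p = 0.0474 by edgeR) and with DESeq2 (adjusted p = 0.0454).

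Myc (chr15:61985341-61990361), a factor that drives growth and ribosome production, was the exception in direction. It ran from 0.617 to 26.7 CPM in young and from 0.987 to 6.37 CPM in old mice, with medians of 1.19 and 2.43. The old median was the higher, yet the fitted log2 fold change was -0.33 (SE 0.68, adjusted p = 0.735 by edgeR), since young mouse 1235 alone had 26.7 CPM. Without that mouse the value was 0.55 (SE 0.40, adjusted p = 0.315), so that the direction turned on 1 library. It was -0.56 without young mice 1184, 1186 and 1188 and -0.63 without old mouse 1187, and passed in neither fit.

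Markers of other liver cells were higher in old mice beside these genes, and the fit was repeated with a score over 40 such markers as a covariate. With it, Fos (log2 fold change 1.40, adjusted p = 0.0476 by edgeR), Jun (0.89, 0.0475), Jund (0.46, 0.00585), Egr1 (1.24, 0.0285) and Ier2 (0.98, 0.00573) still passed, and Atf3 did not (1.18, adjusted p = 0.141). That made 5 of 10 called higher, where 6.68% of tested genes were. Junb had a log2 fold change of 0.21 in that fit (SE 0.26), and Myc had -1.55 (SE 0.68, adjusted p = 0.132). Without young mice 1184, 1186 and 1188, 7 of 10 were called higher, where 14.6% of tested genes were. Junb and Zfp36 were then among them and Atf3 was not.

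**Figure D2:**
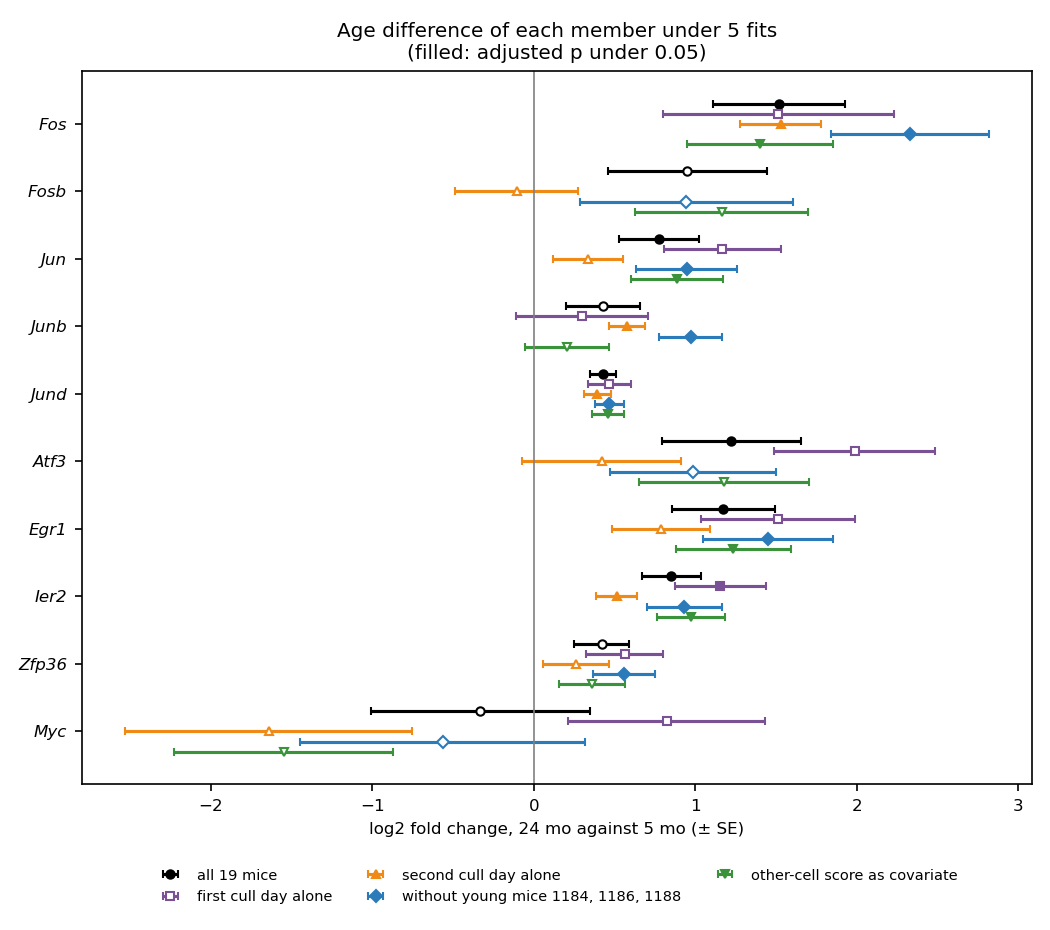
Log2 fold change of old against young mice (horizontal axis, ± SE) for each gene in 5 fits, with filled symbols where the adjusted p was under 0.05. Jund stays between 0.39 and 0.47 in these fits, Fos is highest without the 3 young mice, Fosb was not tested on the first cull day alone, and Myc lies on both sides of 0.

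The second cull day was compared with the first in the same fit. None of the 10 genes was called by edgeR's quasi-likelihood test, nor by DESeq2 or limma-voom. Of 12269 tested genes edgeR called 12.3%, DESeq2 called 2061 and limma-voom called 2170. At an unadjusted p under 0.05 by edgeR there was 1 of the 10, where 3684 of 12269 tested genes had one. It was Jund, with a log2 difference of 0.17 for the second against the first day (SE 0.08, adjusted p = 0.158 by edgeR). Without old mouse 1183 Jund was called (0.21, adjusted p = 0.0491 by edgeR). The 10 genes were also fitted within each day. On the first day alone 1 of 9 tested was called higher in old mice, Ier2 (log2 fold change 1.15, adjusted p = 0.0498 by edgeR), where 1.88% of tested genes were. On the second day alone 4 of 10 were called higher, where 12.2% of tested genes were. These were Fos (1.53, adjusted p = 0.00192 by edgeR), Ier2 (0.51, 0.0145), Junb (0.58, 0.00393) and Jund (0.39, 0.00752).

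Fos had almost the same log2 fold change on each day, 1.51 on the first and 1.53 on the second, but its SE was 0.72 on the first and 0.25 on the second. The first-day value rests on young mice 1184, 1186 and 1188, since the other 2 young mice of that day had 1.79 and 4.04 CPM. Egr1 had 1.51 on the first and 0.79 on the second day, with adjusted p-values of 0.0895 and 0.0904 by edgeR, and passed on neither day alone. Jun had 1.17 and 0.34 and Atf3 had 1.99 and 0.42, and neither passed within a day. Fosb, with 0.95 over all mice, had -0.11 on the second day and was not tested on the first. Myc had 0.82 on the first and -1.64 on the second day, and neither value passed. Whether the age difference itself differed between the days was tested as an interaction. It was called for 0 of the 10 and for 0 of all 12269 genes by edgeR (799 at an unadjusted p under 0.05). At an unadjusted p under 0.05 there were 2 of the 10. For Fosb the age difference was lower on the second day by a log2 value of -2.18 (SE 0.87, adjusted p = 0.708 by edgeR), and for Myc by -2.48 (SE 1.17, adjusted p = 0.759).

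Both tests of the day were repeated without young mice 1184, 1186 and 1188, which left 2 young mice on the first day, both with low Fos. The interaction of Fos was then -2.72 (SE 0.73, adjusted p = 0.9996 by edgeR) against 0.01 with all mice, and that of Junb was -1.09 (SE 0.28) against 0.28. It was -1.77 for Jun, -1.93 for Egr1, -1.17 for Ier2, -0.80 for Zfp36 and -3.65 for Myc. With Fosb, at 0 CPM after rounding in both of those young mice, these made 8 of 10 genes with an unadjusted p under 0.05. Of 12354 tested genes 299 had one, and 0 of the 10 passed after adjustment. The cull day difference of Fos was 0.84 (SE 0.48, adjusted p = 0.347 by edgeR) in place of 0.04, and that of Junb was 0.51 (SE 0.19, adjusted p = 0.164) in place of -0.04.

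Mice of one age and one cull day differed far more in these transcripts than in a typical gene. The SD of log2 CPM within age and day had a median of 0.67 over the 10 genes and 0.24 over all tested genes. Myc (1.23) and Fos (1.19) stood at the 99.1 and 98.8 percentiles of tested genes, whereas Jund (0.18) stood at 27.1. Within ages, the median SD over the 10 genes was 0.72 in young and 0.56 in old mice, beside 0.23 in both ages over all tested genes. For Junb it was 0.75 in young and 0.33 in old mice, and for Fos 1.43 and 0.83. These spreads were not tested against each other.

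Most of the genes varied together between mice. After removal of the age by cull day means, Fos went with Junb at a Pearson's r of 0.944 over 19 mice (permutation p = 0.00012, adjusted p = 0.00124 over 19 relations) and a Spearman's rho of 0.925 (permutation p = 0.00013, adjusted p = 0.00247). Without the 2 mice farthest from the median Fos residual, r was 0.906. Fos went with Fosb at an r of 0.888 (permutation p = 0.00212, adjusted p = 0.00671, rho 0.80, r 0.828 without the farthest 2), and with Jun at 0.843 (permutation p = 0.00024, adjusted p = 0.00152, rho 0.847, r 0.817). With Ier2 r was 0.830 (permutation p = 0.0012, adjusted p = 0.00456, rho 0.784, r 0.671), with Egr1 0.785 (permutation p = 0.00095, adjusted p = 0.00451, rho 0.73, r 0.631) and with Zfp36 0.731 (permutation p = 0.00013, adjusted p = 0.00124, rho 0.746, r 0.571). The relation did not pass for Jund (r 0.561, permutation p = 0.0279, adjusted p = 0.0661), Atf3 (r 0.44, permutation p = 0.0661, adjusted p = 0.14) or Myc (r 0.19, permutation p = 0.474, adjusted p = 0.692). The adjusted p of rho was at most 0.0146 for the 6 that passed.

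The relations were recomputed within each cull day. On the first day Fos went with Junb at an r of 0.972 over 10 mice (permutation p = 0.00092, adjusted p = 0.00583), and the 5 young mice of that day split into 1180 and 1182 with low and 1184, 1186 and 1188 with high Fos. On the second day, over 9 mice, r was 0.562 (permutation p = 0.176, adjusted p = 0.546), and 0 of 19 relations passed. The difference between the days was not tested. Without young mice 1184, 1186 and 1188, 3 of 19 relations passed, those of Fos with Junb (r 0.864, permutation p = 0.0058, adjusted p = 0.0417), Jun (0.738, permutation p = 0.00658, adjusted p = 0.0417) and Zfp36 (0.652, permutation p = 0.00364, adjusted p = 0.0417). By rho only Junb passed in that setting (0.829, adjusted permutation p = 0.0137), with adjusted p-values of 0.0541 for Zfp36 and 0.0906 for Jun.

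**Figure D3:**
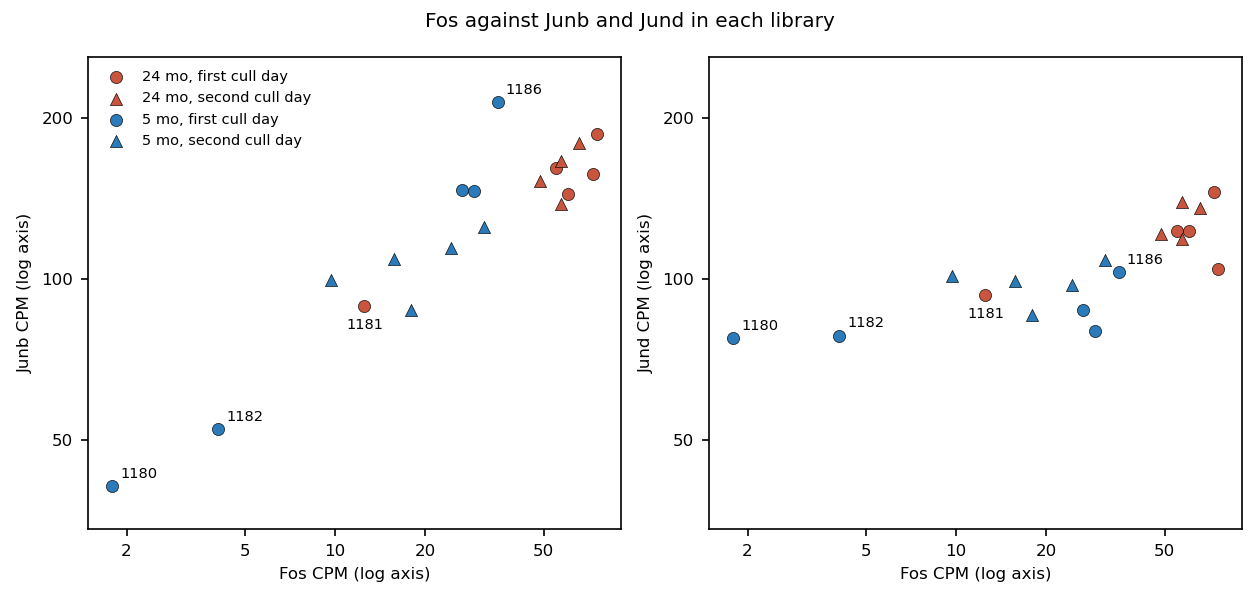
Fos level (horizontal axis, CPM, log scale) against Junb (left) and Jund (right, both vertical axes CPM, log scale) in each mouse, by age and cull day, with 4 mice named. Fos and Junb run together from young mouse 1180 to young mouse 1186. Most old mice lie at the right, and Jund spans a narrow range.

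Over all 45 pairs of the 10 genes, residuals had a median r of 0.63, with 44 pairs positive and 30 above 0.5. Without Myc the 36 pairs ran from 0.29 to 0.944 with a median of 0.73. Egr1 and Zfp36 stood at 0.88. All values of a mouse come from 1 library and 1 scaling, which these coefficients share. The other-cell score passed with 1 of the 10 genes, Myc (r 0.576, permutation p = 0.00522, adjusted p = 0.0142), whose rho of 0.526 did not pass (permutation p = 0.0432, adjusted p = 0.103). Without the 2 mice farthest from the median score the r for Myc was 0.506. On the first cull day r for Myc was 0.731 (adjusted permutation p = 0.058) and rho was 0.794 (permutation p = 0.0129, adjusted p = 0.035), so that rho passed and r did not. On the second day r was 0.583 (adjusted permutation p = 0.546) and rho was 0.15 (adjusted permutation p = 0.872). For the other 9 genes r with the score lay between -0.109 and 0.358, and none passed. Without the 2 mice farthest from the median score these r were higher for several genes, at 0.592 for Junb, 0.537 for Fos, 0.428 for Egr1 and 0.414 for Zfp36, with no test of these values.

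**Figure D4:**
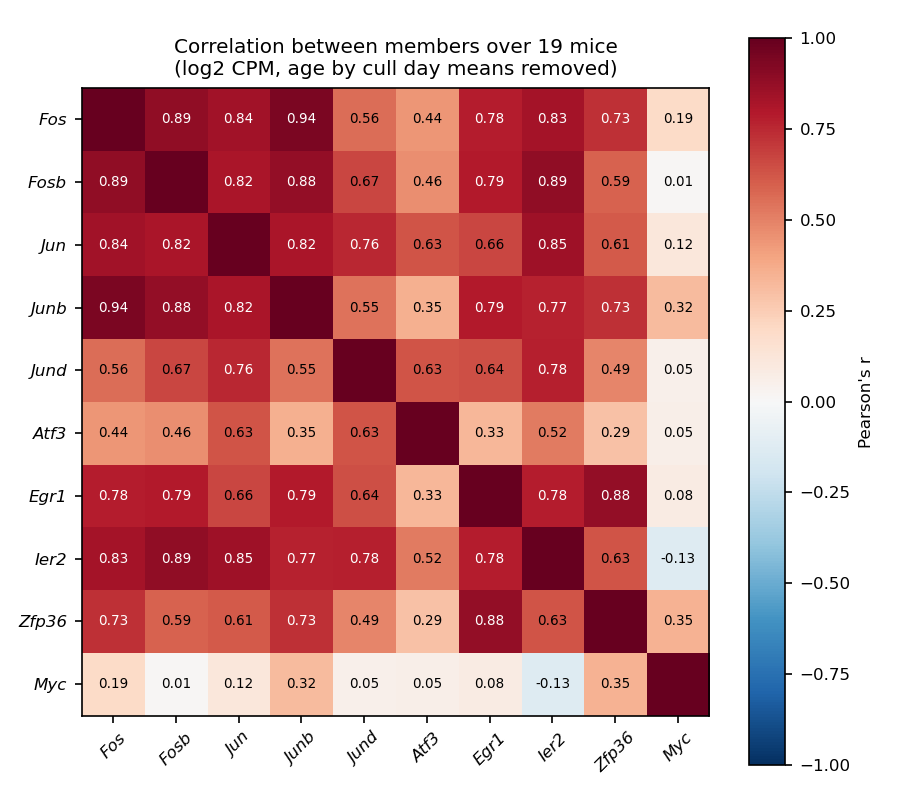
Pearson's r between each pair of genes over 19 mice, on log2 CPM with age by cull day means removed (colour from -1 to 1, value in each cell). Fos, Fosb, Jun, Junb, Egr1 and Ier2 form a block of high values, Atf3 is lower, and Myc is near 0 with most.

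Outside the 10 genes, the 5 tested genes whose residuals were most like the mean residual of the 10 over 19 mice were Btg2 (r 0.94), Tnfsf12 (0.90), Nfasc (0.88), Bcl3 (0.88) and Rnd3 (0.88). Btg2, an antiproliferative gene that is itself rapidly induced, ran from 9.27 to 151 CPM in young and from 31.6 to 117 CPM in old mice. Its age difference did not pass (log2 fold change 0.51, SE 0.40, adjusted p = 0.346 by edgeR), nor did those of Tnfsf12 (0.51, adjusted p = 0.0504), Nfasc (0.73, adjusted p = 0.0648), Bcl3 (-0.46, adjusted p = 0.230) and Rnd3 (-0.08, adjusted p = 0.753).

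Levels can be compared between genes once divided by the exon length that the table gives. In CPM per kilobase, Zfp36 was the highest of the 10 in both ages, at 77.0 ± 21.4 in the 10 young mice and 104 ± 27.1 in the 9 old mice (mean ± SD). In young mice there followed Junb (61.8), Ier2 (48.4), Jun (34.2), Jund (31.9), Egr1 (20.2), Fos (9.38), Myc (1.82), Atf3 (1.43) and Fosb (0.139). Myc was above Atf3 in only 4 of 10 young mice, and its mean includes 11.2 in mouse 1235. The young medians were 0.498 for Myc and 1.05 for Atf3, the reverse order. In old mice the order was Zfp36, Ier2 (84.4), Junb (83.1), Jun (54.9), Egr1 (44.2), Jund (42.7), Fos (26.8), Atf3 (2.97), Myc (1.16) and Fosb (0.247). The lengths set this order in part. The table gives Jund 2875 and Zfp36 1761 exon bases, and the GENCODE transcripts described above have 1668 and 2790. With the latter, Jund would stand higher and Zfp36 lower, so that their places, and the share of Jund among JUN genes, depend on the gene model. Neighbours that, with the table's lengths, did not differ beyond the SD of their log2 difference between mice were Zfp36 and Junb, Junb and Ier2, Jun and Jund, and Myc and Atf3 in young mice. In old mice they were Zfp36 and Ier2, Ier2 and Junb, Jun and Egr1, and Egr1 and Jund.

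On this scale the FOS family (Fos, Fosb, Fosl1 and Fosl2) was set against Jun, Junb and Jund. Fosl1 and Fosl2 are not among the 10 genes but were counted, Fosl2 at a mean of 9.15 CPM in young and 9.81 CPM in old mice. Fos itself made up 80.6% ± 13.5 of the FOS sum in young and 91.9% ± 4.82 in old mice (SD). The FOS family made up 7.33% ± 2.88 of the sum of both families in young mice (SD, n = 10), from 2.95% to 10.8%. In old mice it made up 13.3% ± 2.86 (SD, n = 9), from 6.28% to 16.6%. In 8 of 9 old mice the share was above that of every young mouse, mouse 1181 being the exception. The JUN sum was 128 ± 41.9 CPM per kilobase in young and 181 ± 28.9 in old mice. Jund made up 27.2% ± 8.25 of it in young and 23.9% ± 2.83 in old mice, with the highest shares in young mice 1180 (43.0%) and 1182 (40.1%), where Jun, Junb and Fos were lowest. Apart from the part of Fosl1, these shares restate the levels above, and they were not tested.

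Related genes were taken from lists of the pathway, whose counts stand beside 16.3% of all tested genes called higher and 14.5% called lower. Among 7 tested AP-1 relatives, 1 was higher with age and 0 lower, with a median log2 fold change of 0.03. Jdp2, a repressor that pairs with JUN proteins, rose by 1.16 (SE 0.39, adjusted p = 0.0322 by edgeR), from a median of 0.594 to 1.03 CPM. It was not called without old mouse 1187, whose macrophage sum was 3324 CPM, nor with the other-cell score, and without young mice 1184, 1186 and 1188 the count was 2. Of 8 other immediate early transcription factors, 2 were higher and 0 lower, with a median of 0.40. Klf2 rose by 1.17 (adjusted p = 0.00504 by edgeR) and Klf4 by 1.24 (adjusted p = 0.00983), both known as flow-responsive factors of endothelium, and neither was called with the other-cell score. Without the 3 young mice 4 of the 8 were higher. Nr4a1, an inducible nuclear receptor, had a log2 fold change of -0.04 (adjusted p = 0.942 by edgeR), and Srf, the factor that binds CArG boxes, had -0.02 (adjusted p = 0.817).

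Of 20 other rapidly induced genes, 3 were higher and 1 was lower, with a median log2 fold change of 0.30. Plk2, a stress-responsive kinase, rose by 0.71 (adjusted p = 0.00109 by edgeR) and Ctgf, a matrix-associated growth factor, by 2.41 (adjusted p = 0.0012), while Plk3 fell, with a log2 fold change of -1.20 (adjusted p = 0.0161). The remaining called gene was Rhob. Without young mice 1184, 1186 and 1188, 9 of them were higher and 0 lower, and with the other-cell score 1 was higher. Socs3, the feedback inhibitor of cytokine signalling, ran from 1.12 to 179 CPM in young mice and had a log2 fold change of -0.52 (SE 0.80, adjusted p = 0.650 by edgeR).

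Of 10 MAP kinase phosphatases and Sprouty genes, which feed back on the kinase cascades, 2 were higher, a share near the 16.3% of all tested genes, and 0 were lower. The median log2 fold change was 0.26, and the counts did not move in the 4 other fits of the lists. Spry1, an inhibitor of receptor signalling, ran from 0.329 to 1.98 CPM in young and from 1.87 to 5.94 CPM in old mice. Its log2 fold change was 1.53 (SE 0.26, adjusted p = 0.000488 by edgeR). Dusp6, a cytoplasmic MAP kinase phosphatase, went from a median of 26.2 to 48.5 CPM, a log2 fold change of 0.85 (SE 0.19, adjusted p = 0.00385 by edgeR).

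The kinases of the cascades and the SRF partners were counted next. Of 29 tested, 2 were higher and 8 lower, with a median log2 fold change of -0.13. Mapk3, a kinase at the end of the growth factor cascade, rose by 0.35 (SE 0.06, adjusted p = 0.000754 by edgeR), whereas Map2k3, which activates p38, had a log2 fold change of -0.29 (SE 0.06, adjusted p = 0.00269). The other gene called higher was Elk3, an SRF partner, with a log2 fold change of 0.83 (SE 0.22, adjusted p = 0.0103 by edgeR). The count of lower genes was 3 when libraries were scaled by their totals, where 1169 of 12269 tested genes were lower against 1780. It was 3 with the other-cell score, where 769 of 12269 were, and 5 without old mouse 1187, where 1491 of 12277 were, and that of higher genes was 1 with the score and 4 without the 3 young mice. Of 13 MYC network partners, 1 was higher and 2 lower, with a median of 0.02. Mlx, the partner of the glucose-sensing factors, had a log2 fold change of -0.29 (adjusted p = 0.0102 by edgeR), Mxd4, a MYC antagonist, also -0.29 (adjusted p = 0.0287), and the gene called higher was Mycn. With the other-cell score 2 were higher and 1 lower, and 1 was lower with library totals.

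**Figure D5:**
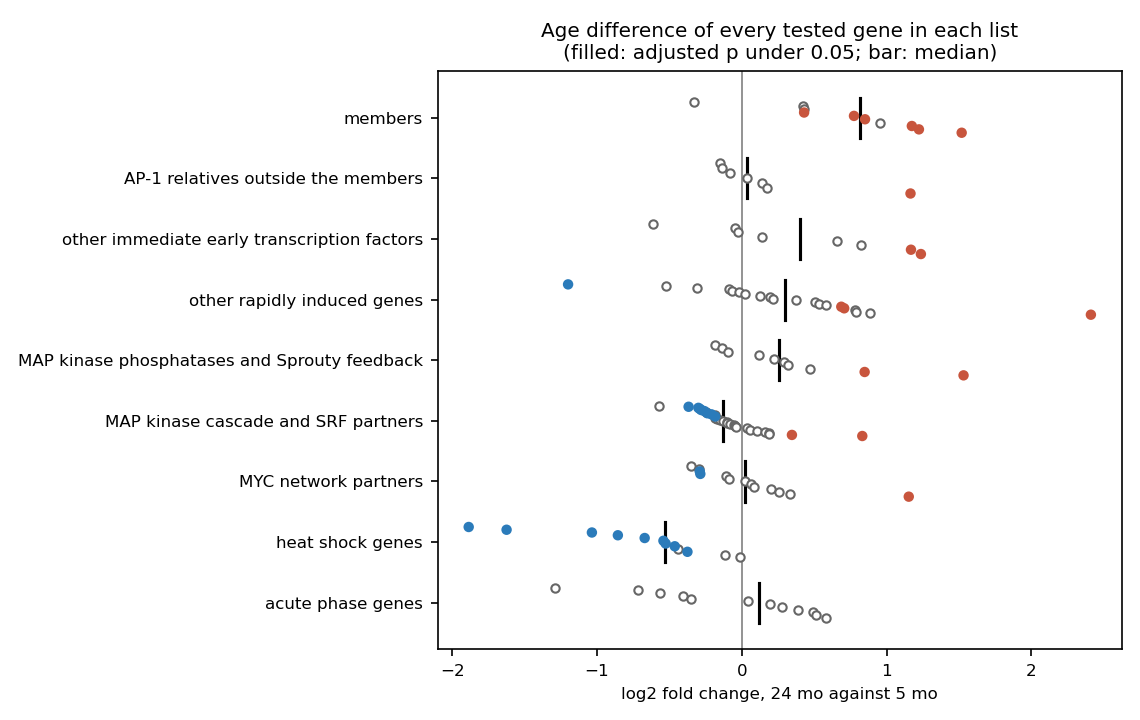
Log2 fold change of old against young mice (horizontal axis) for every tested gene of the 10 and of each related list, filled where the adjusted p was under 0.05, with a bar at the list's median. The 10 genes have the highest median, 0.81, and the heat shock genes the lowest, -0.53.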

How the data were processed

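Poly(A) RNA of perfused hepatocytes from 19 mice was extracted with Trizol and chloroform and sequenced as a stranded paired-end library at BGI, per the labels' protocols. The authors deposited 1 table of estimated counts per gene, written by HOMER's analyzeRepeats.pl for mm10 over the exons of RefSeq transcripts, per the file headers. The submitters' processing notes name STAR and HOMER and the builds GRCm38 and mm10. Versions, the strand setting of the counting and the handling of reads with several matches are not given in the sources used here. No other gene of the table overlapped the exons of the 10 genes.

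The deposited counts were multiples of 0.5, 29.2% of values were not whole, and all were rounded before testing. The tests had been set for plain counts and were kept. Genes were filtered with filterByExpr by age (minimum count 10), which left 12269 of 24537, of which 6045 had no read. Age and cull day were tested with edgeR 4.0.16 (R 4.3.3) with TMM scaling, and age by cull day as an interaction. An SE is the size of the log2 fold change over the root of its F statistic. DESeq2 1.42.0, limma 3.58.1 (voom), other scalings and filters, single cull days and sets without given mice were the alternatives. The tests were checked on simulated counts with 200 changed genes. Relations used log2 CPM (prior count 2), with age by cull day means removed and 100000 permutations within these cells. With 1 library per mouse, p-values measure the spread between mice of 1 strain.

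The 10 genes and the lists were chosen with earlier results of these data known. From each list the text names up to 3 called genes of smallest p whose mean reached 1 CPM, and the 5 genes most like the 10 by correlation. Rhob, Mycn, Elk3, Fosl1, Fosl2, Nr4a1, Srf, Socs3 and the heat shock genes Hspa1a and Hspa1b were named after their values were seen. 1 gene that this rule selects is not reported here.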

Additional observations from a re-analysis of the deposited data

Results flagged for a closer look

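In each age, the highest and lowest mouse of each of the 10 genes were compared with the rest on the log2 CPM scale, which made 20 groups, and chance alone sets a mouse apart in about 1 of 20 such groups. In 4 of them 1 mouse stood apart by a gap that was a large share of the whole range. Old mouse 1181 had 12.5 CPM of Fos, where the other 8 old mice had 48.5 to 75.3, a gap of 0.755 of the range. The same mouse had 89.0 CPM of Junb (others 138 to 186, gap share 0.592) and 66.5 CPM of Ier2 (others 114 to 185, gap share 0.525). Young mouse 1243 had 11.0 CPM of Atf3, where the other 9 young mice had 0.878 to 2.84, a gap share of 0.547. Without mouse 1181 the age log2 fold change was 1.65 for Fos, 0.50 for Junb (adjusted p = 0.102 by edgeR) and 0.92 for Ier2.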

How the results depend on the processing

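Of the 31 other fits by age, 30 kept the number of the 10 genes called within 1.5 times of 6, from 4 to 8, and 1 did not, the first cull day alone with 1. Fos and Jund passed in 30 fits each and Ier2 in 31. Genes called by age over the whole table numbered 3785, and 450 on the first cull day alone, 2389 on the second alone (fewer mice in each) and 1589 with the other-cell score. Leaving out each mouse gave 5 to 8 of the 10 genes and 3014 to 3949 genes in all. For cull day, leaving out each mouse gave 0 to 1 of the 10 genes and 609 to 2336 genes, against 1506. That count was 971 without a filter, 183 in young mice alone, 0 in old mice alone (1200 at an unadjusted p under 0.05) and 0 without young mice 1184, 1186 and 1188 (2474 unadjusted), all by edgeR. Relations past the threshold went from 7 to 0 on the second cull day and to 3 without those mice. Scaling by library totals called 3267 genes, of which 64.2% were higher against 53.0%, and moved the median log2 fold change of all genes from -0.003 to 0.04. Jun lost its call without the cull day term (0.68, adjusted p = 0.0567 by edgeR), as did Atf3 (1.06, adjusted p = 0.068). Fosb was not tested on the first cull day alone or with a mean of at least 1 CPM. Fosb had at most 37.5 reads in a library, Atf3 16.5 to 233 and Myc 11 to 457.5, and the part of counting error in their spread was not tested. The alternative prior count for genes under the filter had no case. Unrounded counts, the relations without the 3 mice and the list refits were added after the data were seen. No paired analysis was possible because the library numbers are not shared between the ages.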

Other observations

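Heat shock genes are another class of stress-induced transcripts. Of 12 tested, 9 were lower in old mice and 0 higher, where 14.5% of all tested genes were lower and 16.3% higher, with a median log2 fold change of -0.53. Dnaja1, a co-chaperone, went from a median of 259 to 163 CPM (log2 fold change -0.67, SE 0.09, adjusted p = 7.3e-05 by edgeR). Hspd1, the mitochondrial chaperonin, went from 439 to 318 CPM (-0.46, adjusted p = 9.34e-05), and Hsph1, a co-chaperone of HSP70, from 46.3 to 23.9 CPM (-1.04, adjusted p = 0.000301). The inducible HSP70 genes Hspa1a (-1.89) and Hspa1b (-1.62) were also called, though these near-identical copies can share reads. With the other-cell score the count of lower heat shock genes was 5, where 769 of 12269 tested genes were lower, and without young mice 1184, 1186 and 1188 it was 7, where 1549 of 12354 were.

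Young mouse 1243 had the highest mean of the heat shock list, 6.67 on the log2 CPM scale, and also the highest young levels of Fosb, Jun, Jund, Atf3 and Ier2. Young mouse 1235, the one with 26.7 CPM of Myc, had the second highest heat shock mean, 6.48. The old mice lay between 5.01 and 5.49, and mouse 1181, with the lowest Fos among them, had the lowest.

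Of the 12 acute phase genes, 0 were called in either direction by edgeR over all mice (0 at an unadjusted p under 0.05), with a median log2 fold change of 0.12, and 1 was lower with the other-cell score. Without young mice 1184, 1186 and 1188, 9 were called higher in old mice, but these mice were set apart by their levels of these same genes, so that leaving them out favours that direction by construction.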
